A study of Mus musculus with 2 samples.

Results

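The genes described here encode the mitochondrial respiratory chain and the ATP synthase. Members were the nuclear genes measured by probes annotated to a single gene whose symbol began with Nduf, Uqcr, Atp5 or Cox followed by 4, 5, 6, 7 or 8, together with Sdha, Sdhb, Sdhc, Sdhd, Cycs and Cyc1. This rule used names and no measured value, and it took 89 of the 17501 named genes. By complex they were 33 genes of complex I, 4 of complex II, 9 of complex III, 18 of complex IV and 17 of complex V, the ATP synthase, with the cytochrome c gene Cycs and 7 assembly factors of complex I (the Ndufaf genes) beside them. A further 9 coding genes with such symbols, among them the isoform gene Ndufa4l2, had no single-gene probe in the table and were not analysed here.

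The study used 2 two-colour microarrays, each hybridised with Cy5-labelled RNA of mouse lymphocytes polarized in culture, Th17 on the first and Th1 on the second, and with Cy3-labelled RNA of Th0-polarized lymphocytes. Per the labels, all lymphocytes came from a TRP-1 mouse, and 500 ng of total RNA was used for labelling. The cytokines, the times in culture, the age of the mouse and whether both arrays held the same Th0 RNA are not given in the sources used here. Each comparison had 1 array, with no replicate and no dye swap, so no difference was tested and the number of arrays limits the precision.

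The respiratory chain passes electrons from NADH through complex I, or from succinate through complex II, to ubiquinone, then through complex III and cytochrome c to complex IV, where oxygen is reduced. Complexes I, III and IV pump protons across the inner mitochondrial membrane, and complex V uses the gradient to make ATP. Activated T cells are known to increase both glycolysis and mitochondrial respiration, and most subunits of the chain are encoded in the nucleus.

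Values below are log2 ratios between the channels, exactly as deposited. Titles and dyes name the polarized cells over Th0, so a positive value would likely mean higher expression in the polarized cells. The lineage genes went against this reading: Il17a lay at −5.37 and Il17f at −2.38 on the Th17 array, and Ifng lay at −2.02 and Tbx21 at −1.25 on the Th1 array. Il22, a Th17 cytokine, lay at −5.79 on the Th17 array and −2.53 on the Th1 array. With the sign turned, every positive value below would mean lower expression in the polarized cells. Sides of 0 are therefore named positive and negative, and no direction between cell populations is drawn from them. The median over all named genes was −0.03 on the Th17 array and −0.08 on the Th1 array.

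The promoters of the members were examined in RefSeq windows (build GRCm38.p6), which were found for 73 of the 89 members. Nuclear respiratory factor 1 (NRF1) and GABP, a factor of the ETS family, are known regulators of many respiratory genes, and YY1 is another. The NRF1 motif, GCGCA followed directly by its reverse complement TGCGC, stood in a window of 6 of the 73 members (8.22%). Of all 13883 array genes with a window, 229 had it (1.65%). A gene counted once if any of its windows held the motif. The ETS motif CCGGAAG stood in 18 members (24.7%) against 14.4% of all genes with a window, and the YY1 motif AAGATGGCG in 7 (9.59%) against 2.48%. Both strands of each window, from 250 bases before to 50 bases after the start, were searched, and none of the motifs is contained in another.

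The bases before the start are printed for the members at least 2-fold from 0 on an array that had a window, Atp5g1 and Atp5md, and for the members with both an NRF1 and an ETS motif, Cox6a1 and Atp5k. Capitals mark the motifs, 5′ to 3′ on the strand of the gene.
Atp5g1 (chr11:96075632-96075881, minus strand): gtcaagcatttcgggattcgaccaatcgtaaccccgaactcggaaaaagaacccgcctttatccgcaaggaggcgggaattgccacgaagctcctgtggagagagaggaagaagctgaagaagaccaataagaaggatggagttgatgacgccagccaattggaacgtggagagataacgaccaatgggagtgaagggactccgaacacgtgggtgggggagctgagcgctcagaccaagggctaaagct
Atp5md (chr19:47090648-47090897, minus strand): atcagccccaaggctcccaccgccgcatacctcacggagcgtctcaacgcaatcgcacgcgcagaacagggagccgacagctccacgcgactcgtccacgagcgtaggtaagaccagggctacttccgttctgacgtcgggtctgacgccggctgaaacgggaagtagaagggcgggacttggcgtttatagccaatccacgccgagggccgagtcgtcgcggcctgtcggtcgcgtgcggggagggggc
Cox6a1 (chr5:115348959-115349208, minus strand): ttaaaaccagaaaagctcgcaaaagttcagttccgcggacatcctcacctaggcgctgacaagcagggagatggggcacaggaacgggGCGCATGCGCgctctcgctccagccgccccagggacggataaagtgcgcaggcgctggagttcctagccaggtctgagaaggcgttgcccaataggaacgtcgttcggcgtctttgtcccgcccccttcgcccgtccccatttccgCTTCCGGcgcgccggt
Atp5k (chr5:108434400-108434649, minus strand): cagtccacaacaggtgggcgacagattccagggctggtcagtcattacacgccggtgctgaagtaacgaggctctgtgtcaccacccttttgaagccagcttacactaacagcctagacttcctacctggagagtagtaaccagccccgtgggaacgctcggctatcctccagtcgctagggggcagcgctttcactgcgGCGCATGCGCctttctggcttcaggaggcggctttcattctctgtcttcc
In Cox6a1 the NRF1 motif began 162 bases and the ETS motif 16 bases before the start, and in Atp5k the NRF1 motif began 50 bases before it, while its ETS motif lies after the start and is not shown. The printed stretches of Atp5g1 and Atp5md held none of these letters, and the ETS motif of Atp5md also lies after the start. Among genes with a window, the NRF1 motif stood in 2 of 15 of complex V (Atp5g2 and Atp5k), 1 of 13 of complex IV and 1 of 5 of complex III (Uqcrc1). It stood in 0 of 3 genes of complex II and 0 of 30 of complex I, and also in Ndufaf4 and Ndufaf5. The 6 members with the NRF1 motif had a median log2 ratio of 0.19 on the Th17 array and 0.49 on the Th1 array, against 0.17 and 0.32 for the 67 without it. The 18 members with the ETS motif had medians of 0.26 and 0.32, against 0.13 and 0.37 for the 55 without it. The 7 members with the YY1 motif had medians of 0.41 and 0.49, against 0.15 and 0.295 for the 66 without it. A match of letters is a description and not a bound site.

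Respiratory chain and ATP synthase genes lay mostly on the positive side of both arrays. On the Th17 array 64 of the 89 members were above 0, where 46.3% of all named genes were, and on the Th1 array 75 were, where 42.6% of all were. Below 0 lay 25 members on the Th17 array, where 53.7% of all genes did, and 14 on the Th1 array, where 57.4% did. Of the 26 members with several probes, 11 on the Th17 array and 13 on the Th1 array had probes on both sides of 0. The other 63 members had 1 probe, so their side could not be checked. The median of the members was 0.17 (1.13-fold) on the Th17 array and 0.35 (1.28-fold) on the Th1 array. In all 58 members (65.2%) were above 0 on both arrays, as were 29.2% of all genes. Only 8 members (8.99%) were below 0 on both, as were 40.2% of all genes. The arrays may share their Th0 RNA, so these joint counts do not rest on independent measurements.

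At least 2-fold on the positive side lay 1 member on the Th17 array, where 2.9% of all genes did, and 2 members on the Th1 array, where 3.27% did. With each array centred on its median over all genes, 6 members did so on the Th1 array. No member lay at least 2-fold on the negative side of either array, where 5.52% and 6.92% of all genes did. At least 1.5-fold on the positive side lay 20 members (22.5%) on the Th17 array, against 7.88% of all genes, and 25 members (28.1%) on the Th1 array, against 9.49%. On the negative side 1 member passed 1.5-fold on each array (1.12%), where 13.0% of all genes did on the Th17 array and 16.5% on the Th1 array. The values of the members lay between −0.61 and 1.01 on the Th17 array and between −0.83 and 1.30 on the Th1 array.

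**Figure D1:**
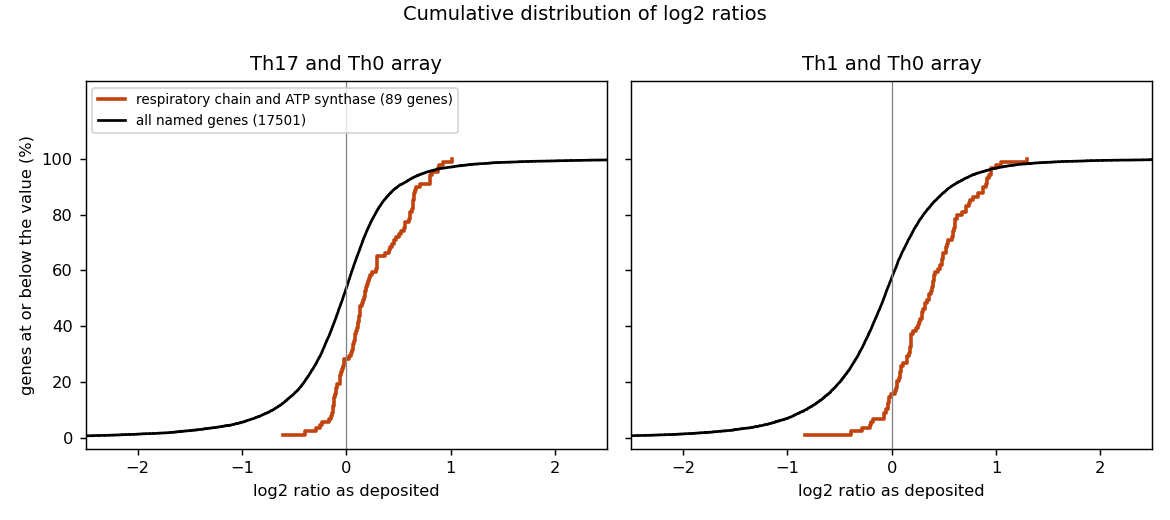
Cumulative share of genes (percent) at or below each log2 ratio as deposited, for the 89 members (orange) and all 17501 named genes (black), on the Th17 and Th0 array (left) and the Th1 and Th0 array (right). The curve of the members lies to the right of that of all genes around 0 on both arrays and closes up with it near a log2 ratio of 1.

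The size of these shifts depends on where 0 is set. Widely expressed control genes, 12 measured of 14 listed, had a median of −0.02 on the Th17 array and 0.27 on the Th1 array. Set against the controls, the median of the members was 0.19 on the Th17 array and 0.0891 on the Th1 array. Set against the most repeated value of each array, it was 0.60 on the Th17 array and 1.20 on the Th1 array. Repeat measurements exist only where a gene has several probes. Over the 25 members with 2 or 3 probes the pooled SD between them was 0.27 on the Th17 array and 0.44 on the Th1 array. Over all 5871 genes with 2 to 19 probes it was larger, 0.50 and 0.52.

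Complex V had the highest median of the 5 complexes on both arrays. Its median log2 ratio was 0.57 (1.48-fold) over 17 genes on the Th17 array and 0.63 (1.54-fold) on the Th1 array. On the Th17 array complexes I, IV, III and II followed at 0.17, 0.14, 0.12 and 0.11. The gap from complex V to complex I was 0.40 there, and the quartiles over genes, 0.13 and 0.70 for complex V and −0.05 and 0.44 for complex I, overlapped. On the Th1 array complexes II, III, I and IV followed at 0.38, 0.32, 0.27 and 0.16. There the gap from complex V to complex II was 0.25, and their quartiles, 0.30 and 0.83 for complex V and 0.22 and 0.53 for complex II, overlapped as well. Centred on the control genes, the Th1 medians of complexes V, II, III, I and IV were 0.36, 0.11, 0.0493, 0.0043 and −0.11, so complex IV changed side. None of these gaps could be tested. The order below complex V differed between the arrays. Within complex V the 5 genes of the catalytic F1 head had medians of 0.13 on the Th17 array and 0.30 on the Th1 array. The F1 head alone was thus below complex I on the Th17 array and below complexes II and III on the Th1 array. The other 12 genes of complex V had medians of 0.60 and 0.67.

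Counts gave a similar picture for the ATP synthase. At least 1.5-fold on the positive side lay 7 of its 17 genes (41.2%) on the Th17 array and 10 (58.8%) on the Th1 array, against 7.88% and 9.49% of all genes. Complex I had 6 and 7 of 33 genes there, complex III 2 and 3 of 9, and complex IV 3 of 18 on each array. Complex II had 1 of 4 genes past 1.5-fold on the Th17 array and 0 on the Th1 array.

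Complex I, the NADH dehydrogenase, is the entry point for electrons from NADH and the largest complex by number of genes. Its genes had a median of 0.17 on the Th17 array, with 23 of 33 above 0, and 0.27 on the Th1 array, with 26 above 0. Of all genes 46.3% and 42.6% were above 0 on these arrays. Ndufs1, the largest core subunit with iron-sulfur clusters, was at 0.82 on the Th17 array and 1.04 (2.06-fold) on the Th1 array, and on the Th1 array it exceeded 97.1% of all genes. Ndufs1 was the 1 complex I gene past 2-fold, and it has 1 probe. Ndufs4, an accessory subunit of the matrix arm, had 3 probes with a mean of 0.80 ± 0.12 on the Th17 array and 0.75 ± 0.11 on the Th1 array (SD over probes). Ndufa5, a further matrix-arm subunit, averaged 0.61 ± 0.12 on the Th17 array and 0.90 ± 0.04 on the Th1 array over 3 probes. The probes of both genes lay on the positive side throughout.

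The lower end of complex I lay close to 0. Ndufs8, a core iron-sulfur subunit, was at −0.39 on the Th17 array and 0.14 on the Th1 array, on opposite sides. Ndufv2, the core subunit beside the flavoprotein, averaged −0.29 ± 0.50 on the Th17 array and −0.20 ± 0.74 on the Th1 array over 2 probes, which lay on both sides of 0 on each array. Ndufb11, of the membrane arm, was at −0.11 and −0.29. The 17 accessory genes of the membrane arm had medians of 0.20 on the Th17 array and 0.26 on the Th1 array. The 8 accessory genes of the matrix arm had medians of 0.32 and 0.52, and the 6 core genes, the catalytic heart of the complex, had medians of 0.02 and 0.34.

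Within complex I the arrays differed most for Ndufa4, which is named for complex I but is found with complex IV. It was at −0.05 on the Th17 array and 0.95 on the Th1 array, a difference of −0.999 just inside 2-fold. Here Ndufa4 was counted with complex I by its name, and without it the largest difference there was −0.54 for Ndufs8. Counted with complex IV instead, it left the medians of complex I at 0.17 and 0.27. All 6 measured core genes had a negative difference, from −0.54 for Ndufs8 to −0.08 for Ndufv2, where 46.1% of all genes had one. The 2 Ndufv2 probes had differences of −0.25 and 0.08, on both sides of 0. These signs depend on the centring: with each array centred on its control median, the median difference of complex I was 0.20 and positive. The control genes' own differences had a median of −0.16. At the other end Ndufa10 and Ndufa13, of the membrane arm, differed by 0.41 and 0.32, and their pairs of probes had SDs of up to 0.51 on an array. The assembly factors, which build the complex without staying in it, had medians of 0.08 on the Th17 array and 0.32 on the Th1 array. Ndufaf7, a methyltransferase of complex I, averaged 0.48 ± 0.35 and 0.29 ± 0.12 over 3 probes, and Ndufaf1 was at 0.18 and 0.39. Ndufaf4 averaged −0.13 ± 0.43 and 0.09 ± 0.66 over 2 probes, and Ndufaf5 0.08 ± 0.25 and 0.60 ± 0.14 over 2 probes. The probes lay on both sides of 0 for Ndufaf4 on each array and for Ndufaf5 on the Th17 array.

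Complex II, succinate dehydrogenase, is the complex that is also an enzyme of the tricarboxylic acid cycle. Sdhd, a membrane anchor, was at 0.64 on the Th17 array and 0.54 on the Th1 array. Sdhc, the other anchor, averaged 0.15 ± 0.09 and 0.52 ± 0.06 over 2 probes, and Sdhb, the iron-sulfur subunit, averaged 0.06 ± 0.03 and 0.19 ± 0.02 over 2 probes. On the Th17 array Sdhd stood apart from Sdhc, Sdhb and the Sdha mean given below, while on the Th1 array the anchors lay above Sdhb.

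Sdha, the flavoprotein, was measured by 77 probes, since it belongs to a block of repeated control probes. Its mean was −0.02 ± 0.25 on the Th17 array and 0.23 ± 0.53 on the Th1 array (SD over probes). Single probes ran from −0.86 to 0.49 on the Th17 array and from −1.45 to 0.90 on the Th1 array. On the Th1 array the values were skewed, with a median of 0.42, quartiles of −0.13 and 0.65, and 22 of 77 probes below 0. The annotation ties 47 of the probes to a cDNA record alone and the other 30 to the RefSeq transcript, most of these to both. On the Th1 array all 22 probes below 0 were among the 47, whose mean was −0.02 ± 0.53, while the 30 RefSeq-matched probes were all above 0, with a mean of 0.62 ± 0.17. On the Th17 array the means of these sets were −0.01 ± 0.29 and −0.04 ± 0.15. The Th17 minus Th1 difference averaged 0.01 ± 0.54 over the 47 probes. Over the 30 RefSeq-matched probes it averaged −0.66 ± 0.21, and all 30 were negative. Probes on 1 array are not repeat experiments, and the difference depends on the centring. The Sdha mean on the Th1 array thus averages unlike probe sets, and its SD is not a measurement error alone. The 1 probe outside the control block read 0.42 on the Th17 array and 0.85 on the Th1 array, above the mean on each. The control genes B2m, Hprt, Tbp and Ywhaz, each with 77 to 79 probes, had SDs of 0.25 to 0.39 on the Th17 array and 0.24 to 0.45 on the Th1 array.

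**Figure D2:**
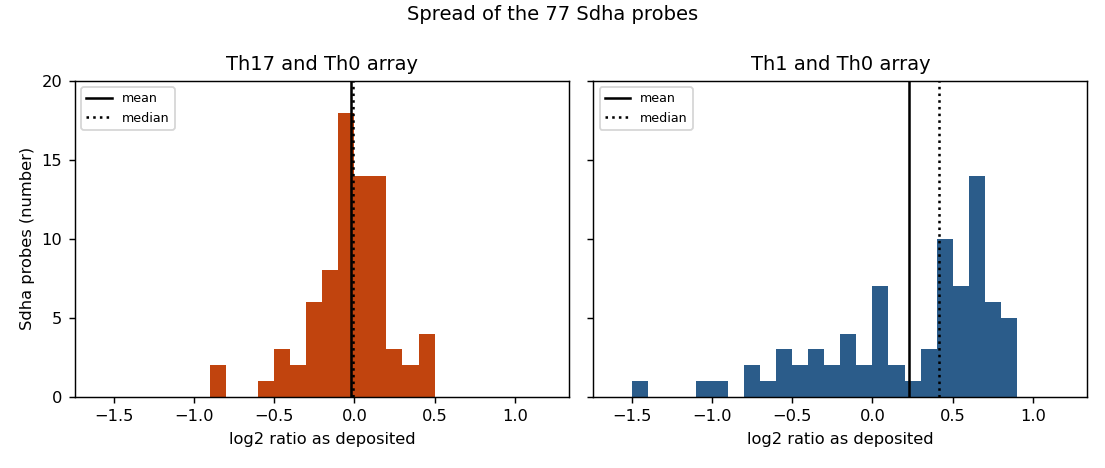
Number of Sdha probes (y axis) by log2 ratio as deposited (x axis) on the Th17 and Th0 array (left) and the Th1 and Th0 array (right), with the mean as a solid and the median as a dotted line. The 77 values cluster around 0 on the Th17 array and have a long tail to the negative side on the Th1 array, where mean and median are 0.23 and 0.42.

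Complex III passes electrons from ubiquinol to cytochrome c. Of its 9 genes 6 were above 0 on the Th17 array and 8 on the Th1 array, where 46.3% and 42.6% of all genes were. Uqcrb, a small subunit near the ubiquinone site, was at 0.61 on the Th17 array and 0.91 on the Th1 array, and the core protein gene Uqcrc2 at 0.50 and 0.78. Uqcrh, the hinge protein beside cytochrome c1, was at 0.60 and 0.17. Of the electron-carrying subunits, Cyc1, cytochrome c1, was at 0.05 and 0.29. Uqcrfs1, the Rieske protein, averaged −0.06 ± 0.18 and 0.18 ± 0.26 over 2 probes. Uqcrq was the 1 gene below 0 on both arrays, at −0.11 and −0.39. Of the 9 genes 7 had a negative Th17 minus Th1 difference, where 46.1% of all genes did. With each array centred on its control median, the median difference of complex III was 0.0429, on the positive side. As deposited it was −0.24, below the −0.16 of the control genes' own differences. The lowest were the core protein gene Uqcrc1 at −0.44 and Uqcr10 at −0.31. Cycs, the mobile carrier between complexes III and IV, was at 0.64 on the Th17 array and 0.49 on the Th1 array.

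Complex IV, cytochrome c oxidase, contains subunits with both ubiquitous and tissue-restricted isoforms. The 10 ubiquitous subunit genes had medians of 0.29 on the Th17 array and 0.36 on the Th1 array. On each array 8 were above 0, where 46.3% and 42.6% of all genes were. Cox7a2 was at 0.93 and 0.87, and Cox7b at 0.81 and 0.998, just inside 2-fold. Cox5a was at −0.23 and −0.07. Cox5b averaged 0.19 ± 0.05 on the Th17 array and −0.18 ± 1.03 on the Th1 array over 3 probes, and the negative mean came from 1 probe at −1.37, while the median of the probes was 0.33.

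The 7 tissue-restricted isoforms had medians of −0.06 on the Th17 array and 0.05 on the Th1 array. Among isoform pairs, the ubiquitous Cox4i1 was at 0.29 and 0.05 and the lung isoform Cox4i2 at −0.06 and −0.08. Cox6a1 averaged 0.29 ± 0.05 and 0.48 ± 0.01 over 2 probes, while the heart and muscle isoform Cox6a2 was at 0.07 and 0.10. Cox6b1 averaged 0.66 ± 0.04 and 0.35 ± 0.12 over 2 probes, and the testis isoform Cox6b2 0.25 ± 0.26 and 0.15 ± 0.18. Cox7a2 lay above the muscle isoform Cox7a1, which was at −0.06 and 0.40, and the testis isoform Cox7b2 was at −0.11 and 0.05. Cox8a was at −0.05 and 0.67, the muscle isoform Cox8b at 0.12 and −0.83, and the testis isoform Cox8c at −0.61 and −0.21. The ubiquitous form had the higher value on both arrays for Cox4i, Cox6a, Cox6b, Cox7a, Cox7b and for Cox8a against Cox8c, while Cox8a lay above Cox8b on the Th1 array alone. None of these pairs was tested. Cox7a2l, a factor for supercomplexes of complexes III and IV, was at 0.16 and 0.17.

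Complex V consists of a catalytic F1 head, a ring of c subunits in the membrane, a peripheral stalk and small membrane subunits. The 5 small membrane subunits had medians of 0.57 on the Th17 array and 0.61 on the Th1 array. All lay above 0 on both, where 46.3% and 42.6% of all genes did. Atp5md, also called DAPIT, which is needed for dimers of the enzyme, averaged 1.01 ± 0.42 (2.02-fold) on the Th17 array and 0.83 ± 0.35 on the Th1 array over 2 probes. It was the 1 member past 2-fold on the Th17 array, and its probes read 1.31 and 0.72 there. Atp5mpl was at 0.89 and 0.75, Atp5j2 at 0.57 and 0.39, Atp5k at 0.55 and 0.61, and Atp5l at 0.57 and 0.03.

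Subunit c is encoded by several genes whose mature proteins are the same. Atp5g1 was at 0.80 on the Th17 array and 1.30 (2.46-fold) on the Th1 array, where it exceeded 98.3% of all genes. Atp5g2 was at 0.63 and 0.50, and Atp5g3 at −0.09 and 0.63. Each was measured by 1 probe. The values of Atp5g1 and Atp5g2 were positive on both arrays and that of Atp5g3 on the Th1 array alone.

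In the peripheral stalk, Atp5j (subunit F6) was at 0.88 and 0.93 and Atp5o, the subunit that ties the stalk to the head, at 0.70 and 0.71. Atp5h was at 0.19 and −0.04, and Atp5pb, subunit b, at −0.13 on the Th17 array and 0.71 on the Th1 array. The F1 head held the member with the largest difference between the arrays, Atp5a1. The catalytic beta gene Atp5b was at 0.13 and 0.88 and the alpha gene Atp5a1 at −0.17 and 0.91. The gamma gene Atp5c1 averaged 0.09 ± 0.24 and 0.18 ± 0.35 over 2 probes, the delta gene Atp5d was at 0.30 and 0.075, and the epsilon gene Atp5e at 0.67 and 0.30.

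**Figure D3:**
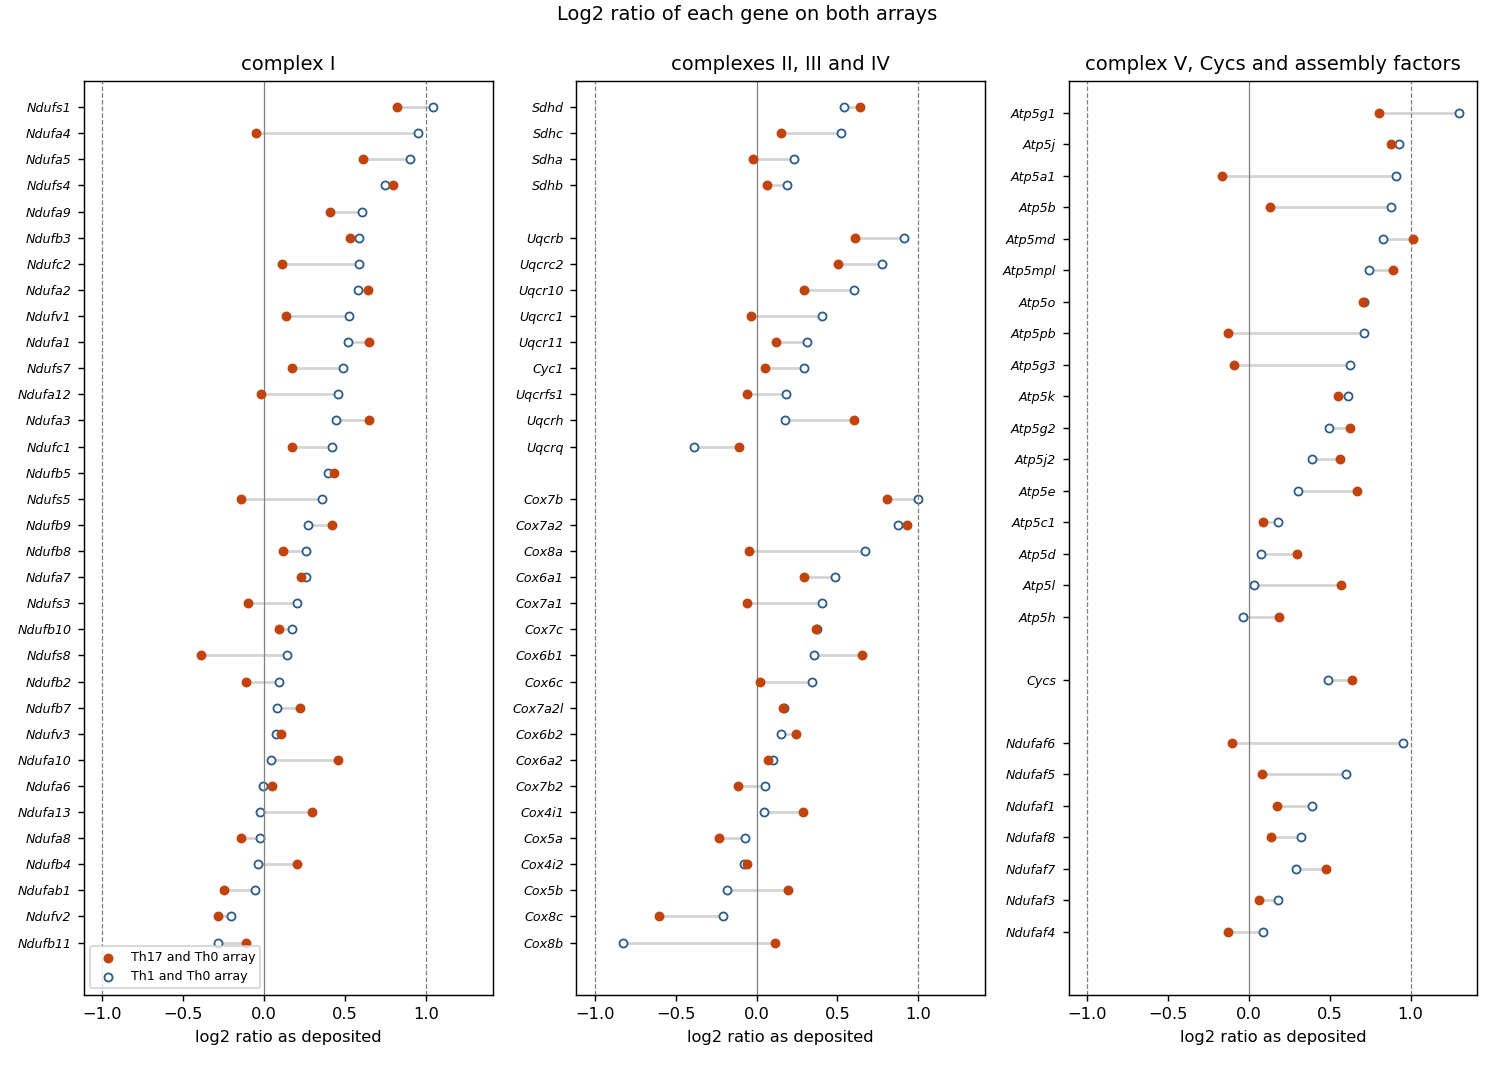
Log2 ratio as deposited (x axis) of each member (rows) on the Th17 and Th0 array (filled orange) and the Th1 and Th0 array (open blue), joined by a grey line and sorted within each complex by the Th1 value; dashed lines mark 2-fold. Most pairs lie to the right of 0, and the longest lines with the Th17 value on the left belong to Atp5a1, Ndufaf6, Ndufa4 and Atp5pb.

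Th17 was set against Th1 by subtracting the log2 ratio on the Th1 array, which assumes the same Th0 RNA on both. Members lay somewhat on the negative side, with a median of −0.12 and 56 of 89 below 0, where 46.1% of all genes were and the median of all genes was 0.04. Above 0 lay 33 members, where 53.9% of all genes did. At least 2-fold on the negative side lay 2 members, where 3.61% of all genes did, and 0 on the positive side, where 4.53% did. These were Atp5a1 at −1.08 (2.11-fold) and Ndufaf6, an assembly factor of complex I, at −1.06 (2.08-fold), which was at −0.10 on the Th17 array and 0.95 on the Th1 array. At least 1.5-fold on the negative side lay 7 members (7.87%, against 9.33% of all genes), and 4 of them belonged to complex V: Atp5a1, Atp5pb at −0.84, Atp5b at −0.74 and Atp5g3 at −0.72. The others were Ndufaf6, Ndufa4 and Cox8a, which lay at −0.72. Cox8b, at 0.94, was the 1 member past 1.5-fold on the positive side. All 8 of these genes rest on 1 probe each. The negative lean of the members depended on the centring. With the control median of each array subtracted from that array, the median difference of the members was 0.16. The control genes' own differences had a median of −0.16, close to the −0.12 of the members.

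By complex, the median differences were −0.01 for complex V, −0.02 for complex IV, −0.08 for complex I, −0.19 for complex II and −0.24 for complex III. All of these turned positive when each array was centred on its control median, between 0.0429 for complex III and 0.27 for complex V. Beside the control genes' own median difference of −0.16, complexes II and III were lower and complexes V, IV and I higher. Complex V thus had a median difference near 0 but a wide range, with Atp5l at 0.53 and Atp5e at 0.37 opposite to the alpha and beta genes.

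Other mitochondrial genes were set beside the chain through fixed lists. Assembly factors with other names (25 measured of 28) had medians of 0.06 on the Th17 array and 0.22 on the Th1 array, and 0 were past 2-fold. Tmem126b, of complex I assembly, was highest at 0.97 and 0.80, Cox20 was at 0.79 and 0.67, and Sdhaf2 at 0.56 and 0.64. The other enzymes of the tricarboxylic acid cycle (13 of 14) had medians of 0.11 and 0.29, with 0 past 2-fold on the Th17 array and 3 on the positive side of the Th1 array. These were the fumarase gene Fh1 at 0.68 and 1.21, the isocitrate dehydrogenase gene Idh2 at −0.24 and 1.03, and Dld, the shared lipoamide dehydrogenase, at 0.43 and 1.002. Dlst was at 0.29 and −0.03, and Idh2 differed by −1.27 between the arrays.

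Genes of the pyruvate dehydrogenase complex and its regulators (9 of 9) had medians of 0.22 on the Th17 array and 0.44 on the Th1 array. The inhibiting kinase gene Pdk4 was at −0.13 and −1.10, Pdk3 was at −0.24 and 0.93 with a difference of −1.17, Pdk1 was at 0.45 and 0.43, and Pdha1, a subunit of the enzyme, was at 0.22 and 0.72. Carriers, pores and the ATP synthase inhibitor (7 of 8) had medians of −0.04 and 0.54, with Vdac3 at 0.64 and 0.97, Slc25a5, an ADP/ATP carrier, at 0.34 and 0.58, Slc25a3, the phosphate carrier, at −0.46 and −0.08, and Atpif1, the inhibitor of ATP synthase, at −0.09 and 0.63. All 7 had a negative Th17 minus Th1 difference, where 46.1% of all genes did, but that of Slc25a4 was −0.0027, close to 0. Like those of the members, these differences depend on the centring.

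Regulators of mitochondrial transcription and replication (17 of 18) had a median of −0.12 on the Th17 array. There 7 of 17 were above 0, near the share of all genes (46.3%). On the Th1 array their median was 0.25 with 13 above 0, where 42.6% of all genes were. Ppargc1a, a coactivator of mitochondrial biogenesis, was at −1.27 on the Th17 array and −2.26 on the Th1 array, the 1 gene of the list past 2-fold on either. Nrf1 was at 0.39 and 0.23, Gabpa at 0.20 and 0.29, and Tfam, the packaging factor of mitochondrial DNA, at −0.26 and 0.25. Polg, the mitochondrial DNA polymerase, was at −0.91 and −0.38, Polg2 at −0.68 and −0.16, Tfb1m at 0.42 and 0.77, and Myc at −0.55 and −0.87.

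A few further families of widely expressed genes served for comparison. Mitochondrial ribosomal protein genes (77) had medians of 0.14 on the Th17 array and 0.28 on the Th1 array, and proteasome subunit genes (39) had medians of 0.23 and 0.43, so both lay on the same side as the respiratory genes. Cytosolic ribosomal protein genes (66) had medians of −0.19 and 0.23, on the opposite side on the Th17 array. Set against these medians, complex V at 0.57 and 0.63 lay higher than each of the 3 families on both arrays. Its quartiles overlapped those of the proteasome, which were 0.08 and 0.40 on the Th17 array and 0.22 and 0.64 on the Th1 array. The F1 head of complex V, at 0.13 and 0.30, lay below the proteasome median on both arrays. Complexes I to IV did not lie above the proteasome on either array.

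**Figure D4:**
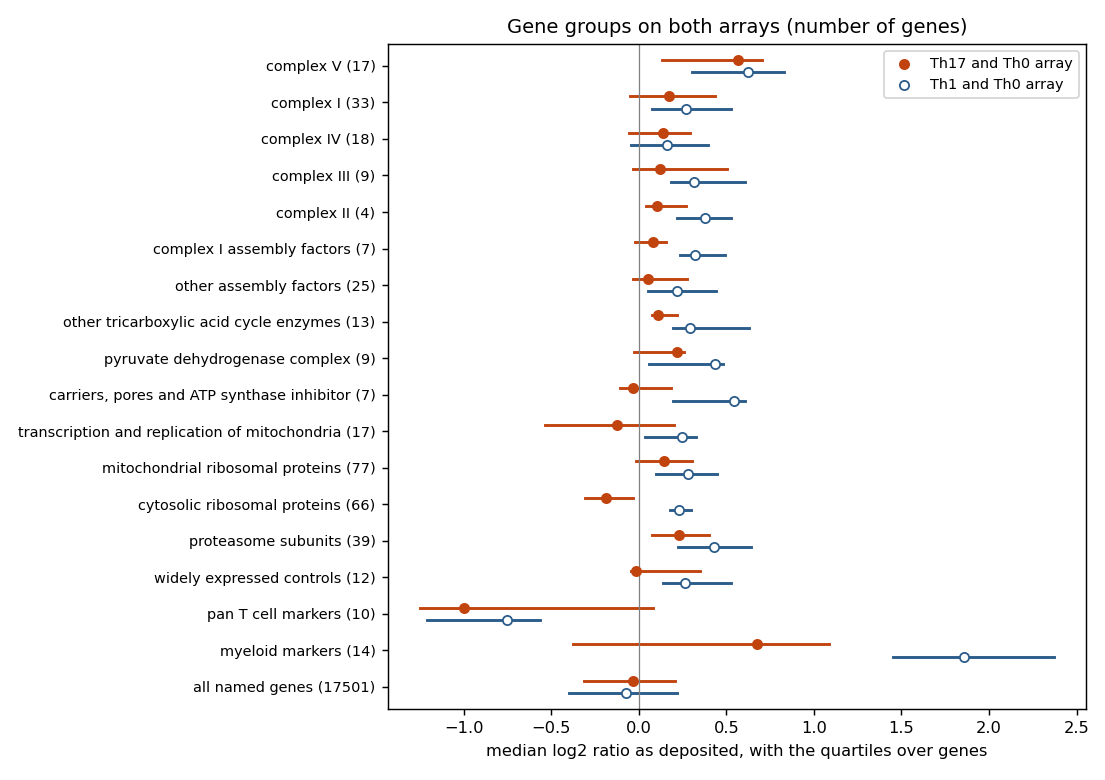
Median log2 ratio as deposited (x axis) of gene groups (rows, number of genes in brackets) on the Th17 and Th0 array (filled orange) and the Th1 and Th0 array (open blue); bars span the quartiles over genes. Complex V lies furthest right among the mitochondrial groups on both arrays, and the myeloid markers lie at 0.68 and 1.86.

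Markers of cell types were read on the same arrays. Pan T cell markers (10 of 11) had medians of −0.999 on the Th17 array and −0.76 on the Th1 array, with 7 and 10 of 10 below 0, against 53.7% and 57.4% of all genes. Myeloid markers (14 of 16) had medians of 0.68 on the Th17 array and 1.86 on the Th1 array. Of the 14, 8 were above 0 on the Th17 array and 14 on the Th1 array, where 46.3% and 42.6% of all genes were. At least 2-fold positive were 6 on the Th17 array and 12 on the Th1 array, against 2.9% and 3.27% of all genes. They ran from −2.04 for Cd14 to 2.14 for S100a9 on the Th17 array, and from 0.03 for Itgam to 2.98 for Fcer1g on the Th1 array. The table holds ratios and no levels, so whether any marker was near background is not known. B cell markers (7 of 8) had medians of 0.14 and −0.14, red cell markers (4 of 5) 0.72 and −0.01, and CD8 T and NK cell markers (6 of 6) −0.27 and −0.12. The CD8 T and NK cell markers lay far apart, from −2.17 for Klrc1 to 3.72 for Klrb1c on the Th17 array. On the Th1 array they ran from −2.49 to 3.22 for the same genes. The part of other cell types in the values of the respiratory genes was not tested, and in bulk RNA fewer cells of a type and less RNA per cell cannot be told apart.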

How the data were processed

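Per the labels' protocols, RNA was purified on columns, and amplified and labelled with an amino allyl kit. The deposited table gave 1 log2 ratio per probe and array for 36547 probes, as the authors processed it; scanner, background correction and normalisation: not given in the sources used here. Repeated values, which settle the log2 unit, lie log2 of small whole-number ratios from the most repeated value (−0.43 on the Th17 array, −0.85 on the Th1 array). The scale is thus settled, while the centring and the direction are not. The median over probes was −0.05 on the Th17 array and −0.11 on the Th1 array.

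Probes were named from the platform annotation, which can be old: 26926 probes had a single gene, 203 several and 9418 none. Gene numbers matched a GRCm38.p6 gene list for 26774 of these probes and for all 89 members, and 0 symbols changed. Probes of a gene were averaged on the log2 scale (195 probes for the 89 members, of which 63 members had 1 probe). The annotation lists 16 pseudogene symbols for 10 of the members, and signal shared with such copies was not tested. A probe whose ratio, within rounding, matched whole numbers with no more than 5 units in the weaker channel was called weak. That held for 1 member probe on the Th17 array and 2 on the Th1 array.

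No test is possible with 1 array per comparison. Genes were counted at 2-fold and 1.5-fold beside the same share of all genes. Named genes were the members past 2-fold, the 2 highest and lowest of each complex, complex II, cytochrome c, isoform pairs, up to 3 of each list by size, and the lineage genes. Other members are named as well, chosen after their values were seen. The members and lists were chosen with earlier results of these data known, and the 3 comparison families by symbol after the data were seen. The scripts, run in Python 3.11.15 with pandas 2.3.3, were tested on simulated data.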

Additional observations from a re-analysis of the deposited data

Results flagged for a closer look

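Of the 89 members 7 (7.87%) lay on opposite sides of 0 on the arrays and at least 1.5-fold apart, as did 10.5% of all named genes. There is 1 array each, so these differences were not tested. The Th17 minus Th1 difference was −1.08 for Atp5a1, −1.06 for Ndufaf6, −0.999 for Ndufa4, −0.84 for Atp5pb, −0.72 for Atp5g3, −0.72 for Cox8a and 0.94 for Cox8b. Each of these 7 genes was measured by 1 probe. The first 6 were negative on the Th17 array and positive on the Th1 array, and Cox8b was the reverse.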

How the results depend on the processing

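No paired analysis was possible because each comparison had 1 array. Complex V had the highest median on both arrays under every alternative run for the complexes, while the order of the others shifted. Recentring moves all genes of an array by the same amount, so it could not change any order. The other alternatives left the median of complex V unchanged and could only move the other complexes towards or away from it. Centred on the control median of each array, the Th17 minus Th1 medians turned to 0.16 for all members. They turned to 0.20, 0.0922, 0.0429, 0.26 and 0.27 for complexes I to V in order. The control genes' own differences had a median of −0.16, and the deposited medians of complexes II and III lay below it. With the same centring, the Th1 medians became 0.0891 for all members and 0.0043, 0.11, 0.0493, −0.11 and 0.36, so complex IV changed side. Centred on the most repeated value of each array, a choice added for the complexes after seeing the data, the medians of all members and of complexes I to V in order were 0.60, 0.60, 0.53, 0.55, 0.57 and 0.99 on the Th17 array. They were 1.20, 1.12, 1.23, 1.16, 1.01 and 1.47 on the Th1 array, and −0.54, −0.51, −0.61, −0.66, −0.44 and −0.43 in the difference. Centred on the array median, 6 members were at least 2-fold positive on the Th1 array, with a median of 0.43. With genes of 2 or more probes alone, the Th1 median of the members was 0.19. With subunits alone, complex IV had medians of 0.29 on the Th17 array and 0.35 on the Th1 array, and 1 member was at least 2-fold negative in the difference. At 1.5-fold the positive and negative counts were 20 and 1 on the Th17 array, 25 and 1 on the Th1 array, and 1 and 7 in the difference. The cause of these shifts, beyond the changed centring, threshold or gene set, was not tested. Among single members, the Th1 value of Sdha was 0.42 and of Cox5b 0.33 with the median over probes. Using its single other probe for Sdha and leaving out weak probes were also added after seeing the data. The ratios give no signal level, so what depth limits is unknown beyond the few weak probes.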
